A study of Homo sapiens with 38 samples.

Results

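Head-to-head promoters are stretches of DNA from which 2 neighbouring genes are transcribed in opposite directions, away from each other. To find them, the outermost annotated starts of all protein-coding genes on the autosomes were taken from GENCODE (GRCh37, the same assembly as hg19), and 859 pairs of genes on opposite strands had starts 1 to 995 bp apart with transcription pointing apart. These pairs held 1656 of the 19229 genes. Each pair was scored as 1 window, the span between both starts plus 1500 bp on each side, and was set against windows reaching 1500 bp to either side of the starts of the 17573 other genes, which makes 18432 windows in all. The median span was 130 bp, with 50% of pairs between 68.5 and 246 bp. Members are not all separate loci: 119 pairs shared a gene with another pair, so that the 859 pairs formed 798 groups, and 63 pairs held a gene known only by its Ensembl identifier.

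The data are CUT&Tag libraries of K562, a human chronic myeloid leukaemia cell line with erythroid features. In CUT&Tag an antibody guides a protein A-Tn5 transposase fusion to a histone mark, and the transposase cuts and tags the DNA beside it. The 8 benchmark libraries profiled H3K27ac with ab177178 at 1:100, ab4729 at 1:100 and Diagenode at 1:50 (2 replicates of each antibody), and H3K27me3 with CST-9733 at 1:100 (2 replicates). All 8 were made with 15 PCR cycles and SDS extraction of DNA. A further 16 H3K27ac and 4 H3K27me3 libraries, with 11 or 13 PCR cycles and SDS or column extraction of DNA, were scored as a repeat. All libraries come from this single cell line. The study calls the benchmark replicates biological, but the sample labels do not say how cultures were divided, and p-values measure only the spread between these libraries.

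Many human genes lie in such divergent pairs, among them many that every cell uses for DNA repair, translation and mitochondrial respiration. Their promoters are typically rich in CpG dinucleotides and poor in TATA boxes. Acetylation of histone H3 at lysine 27 marks active promoters and enhancers, whereas trimethylation of the same lysine, laid down by Polycomb repressive complexes, marks silenced genes, and a single histone tail can carry only one of them.

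The bases between the starts of well-known pairs show what these promoters look like, and 5 are given here because they bear on the values that follow. Each was read from GRCh37 on the plus strand, 5′ to 3′, and holds only the bases strictly between the outermost starts of the minus-strand gene (named first) and the plus-strand gene. Capitals mark 8 motifs on either strand, where a match on the minus strand reads as the reverse complement. They are GGGCGG, the core that SP1 binds, the box CCAAT of the factor NF-Y, the site CCGGAAG of ETS factors, the site GCGCATGC of NRF1, the site AAGATGGCG of YY1, the E-box CACGTG of basic helix-loop-helix factors, the element TGACGTCA of CREB, and the TATA box TATAAA.
RNF166-CTU2, chr16:88772817-88772890: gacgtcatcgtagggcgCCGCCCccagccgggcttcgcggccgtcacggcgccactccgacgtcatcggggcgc
TMEM258-FEN1, chr11:61560275-61560382: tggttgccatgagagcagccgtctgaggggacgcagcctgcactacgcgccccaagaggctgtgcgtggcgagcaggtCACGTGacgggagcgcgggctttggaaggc
PPAT-PAICS, chr4:57301782-57301906: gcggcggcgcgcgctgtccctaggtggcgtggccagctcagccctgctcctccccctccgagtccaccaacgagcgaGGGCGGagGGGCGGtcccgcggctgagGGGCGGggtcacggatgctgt
COL4A4-COL4A3, chr2:228029170-228029339: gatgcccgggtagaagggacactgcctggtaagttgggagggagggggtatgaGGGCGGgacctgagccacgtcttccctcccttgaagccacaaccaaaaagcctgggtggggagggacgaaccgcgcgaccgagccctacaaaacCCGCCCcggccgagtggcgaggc
SARS2-MRPS12, chr19:39421404-39421583: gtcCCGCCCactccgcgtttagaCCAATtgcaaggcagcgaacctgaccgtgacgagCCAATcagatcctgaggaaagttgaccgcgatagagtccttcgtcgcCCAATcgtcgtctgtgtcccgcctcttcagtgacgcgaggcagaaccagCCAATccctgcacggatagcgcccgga

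RNF166-CTU2, PPAT-PAICS and SARS2-MRPS12 were acetylated in every H3K27ac benchmark library by MACS2 and carry GGGCGG, which SARS2-MRPS12 joins with 4 CCAAT boxes. TMEM258-FEN1 holds only an E-box and was acetylated too. COL4A4-COL4A3, with 2 GGGCGG boxes, was not acetylated in any library. A match is a description of the letters and not evidence that a factor binds there.

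H3K27ac was found far more often at head-to-head promoters than at other promoters. A MACS2 peak lay in the window of 84.6% ± 4.42 of pairs and 44.9% ± 3.68 of other promoters (mean ± SD, n = 6 libraries). By library, the share of pairs was 87.5% and 87.5% with ab177178, 76.1% and 86.8% with ab4729 and 83.5% and 86.1% with Diagenode. The corresponding shares of other promoters were 48.2% and 48.0% with ab177178, 38.5% and 46.1% with ab4729 and 42.8% and 45.6% with Diagenode. Every share of pairs was above every share of other promoters, and ab4729 replicate 1 was the lowest for both. The difference was 39.7 ± 1.19 percentage points, higher at pairs in 6 of 6 libraries (p = 0.03125 when the signs of the 6 differences were permuted in an exact test, two-sided, the smallest p that 6 libraries allow, and 0.0365 after Benjamini-Hochberg adjustment over 7 such tests). Without ab4729 replicate 1 it was 40.2 points. The test asks only whether libraries of the same cells and promoters point the same way. A pair window is built on both starts and counts as called with a peak near either, whereas other windows are built on a single start. This alone can raise the share of pairs. With each pair gene scored in its own window the difference was 39.6 points, but such windows also take in the partner's start. How much of the difference follows from the scoring was not tested.

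**Figure D1:**
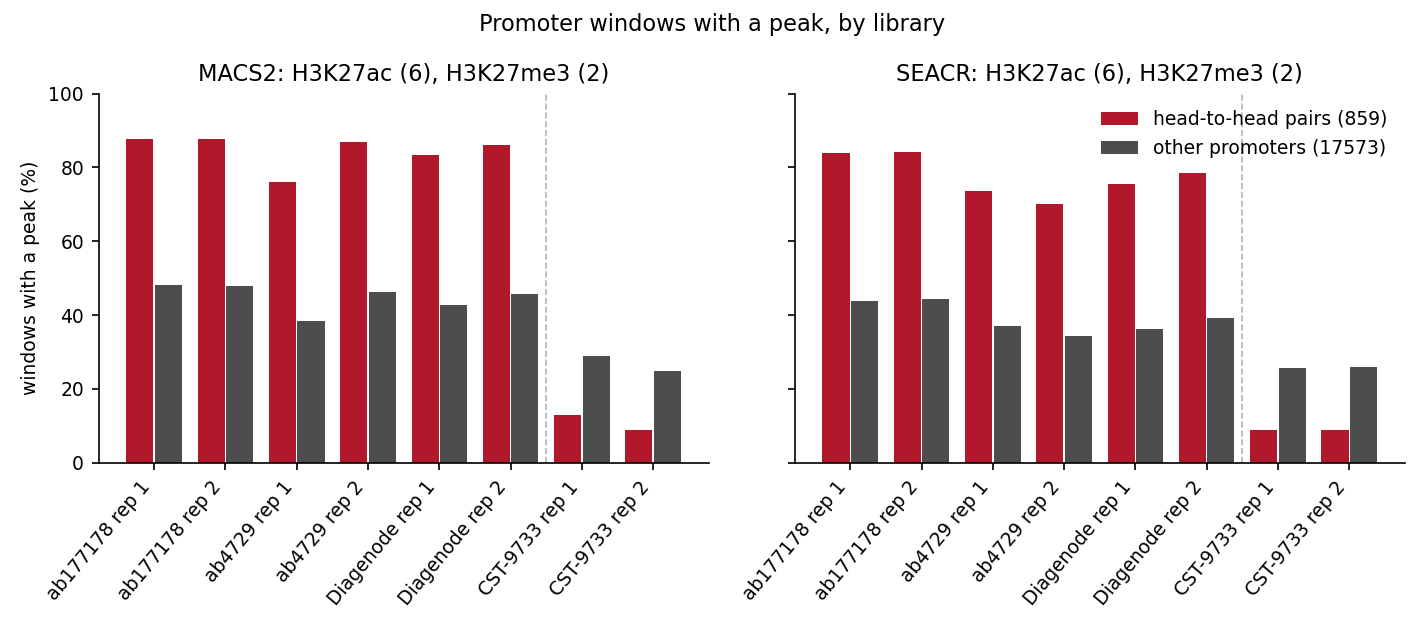
Share of promoter windows (%) that hold a MACS2 (left) or SEACR (right) peak in each of the 8 benchmark libraries, with head-to-head pairs in red and other protein-coding promoters in grey. The H3K27ac bars of pairs stand between 70.2% and 87.5% and those of other promoters between 34.3% and 48.2%, whereas in the 2 H3K27me3 libraries (CST-9733, right of the dashed lines) the bars of pairs are the lower ones.

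SEACR, which calls regions from the total signal of a stretch of covered bases, gave a similar difference of 38.4 ± 1.80 percentage points (SD, n = 6 libraries; 6 of 6 higher; p = 0.03125 in the same exact permutation test, 0.0365 adjusted). SEACR peaks lay at 77.6% ± 5.66 of pairs, against 39.2% ± 4.14 of other promoters. The shares of pairs in the single libraries were 83.9% and 84.2% with ab177178, 73.5% and 70.2% with ab4729 and 75.6% and 78.3% with Diagenode. For other promoters they were 34.3% to 44.3%, lowest in ab4729 replicate 2 and highest in ab177178 replicate 2. Pairs were thus called 1.82 to 1.98 times as often as other promoters by MACS2 and 1.90 to 2.08 times as often by SEACR.

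Most pairs were called in every library. A MACS2 H3K27ac peak in 6 of 6 libraries was found at 641 pairs (74.6%) and at 6481 other promoters (36.9%), where 38.6% of all 18432 windows met this rule. SEACR gave 573 pairs (66.7%) and 5507 other promoters (31.3%), against 33% of all windows. By both callers together, 564 pairs (65.7%) and 5349 other promoters (30.4%) passed, against 32.1% of all windows. At the other end, 95 pairs (11.1%) and 8657 other promoters (49.3%) had no MACS2 H3K27ac peak in any library. Of the 123 pairs called in 1 to 5 libraries, 67 were missed by ab4729 replicate 1 alone. Only 3 pairs were called in both libraries of a single antibody and in none of the other 4 libraries, all with ab177178 and all with low fold enrichment. Of the H3K27ac benchmark libraries, both with ab177178 had the most unique fragments in the paper. Antibody and depth cannot be told apart here. For H3K27ac, MACS2 fold enrichment is the height of the fragment pile-up at a narrow peak over the genome-wide background. It was 9.52 and 9.56 at GTF3C1-KATNIP, 8.33 and 10.2 at SIRT6-ANKRD24 and 6.55 and 8.96 at MRPL10-LRRC46. The median over pairs was 21.4.

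H3K27me3 went the opposite way. Its MACS2 peaks lay at 12.8% and 8.73% of pairs in replicates 1 and 2, against 28.9% and 24.8% of other promoters, and its SEACR peaks at 8.96% and 8.73% of pairs, against 25.5% and 26.0%. The differences of -16.1 (MACS2) and -16.9 (SEACR) percentage points have no test of their own with 2 libraries, and with MACS2 peaks at q 1e-10 or better the first shrank to -3.89, because few broad peaks pass that limit (0.873% of pairs and 4.77% of other promoters). Peaks in 2 of 2 libraries were found at 66 pairs by MACS2 (7.68%, against 22.5% of all windows) and at 60 pairs by SEACR (6.98%, against 22.1% of all windows). Where a pair was called, less of it was covered: within 1500 bp of the centre, MACS2 H3K27me3 peaks covered 42.1% and 49.1% of the bases at called pairs in CST-9733 replicates 1 and 2, against 60.7% and 64.6% at called other promoters.

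Set against each other, the excess of pairs was 55.8 percentage points larger for H3K27ac than for H3K27me3 by MACS2 and 55.4 by SEACR. Among the 28 ways to pick 2 of the 8 libraries as the H3K27me3 libraries, the true one gave the largest contrast for both callers (p = 0.0357 in an exact permutation test, the smallest it allows, and 0.0357 after adjustment over both callers). Each mark had its own antibodies and peak settings, so the test cannot tell the mark apart from these.

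CpG content was also higher at pairs, and the H3K27ac difference was smaller between promoters of like CpG content. The ratio of observed to expected CpG within 500 bp of the midpoint or start had a median of 0.784 at pairs and 0.670 at other promoters, and it exceeded 0.6 in 92.2% of pairs and 57.3% of other promoters. When pairs were compared with other promoters of the same decile of this ratio, the MACS2 difference was 23.4 percentage points and the SEACR difference 24.6, both still in 6 of 6 libraries (p = 0.03125, exact permutation test). The 6 deciles that held at least 100 pairs each, 800 pairs in all, gave H3K27ac differences of 21.5 to 25.9 points by MACS2, with 78.6% to 92.1% of pairs and 54.6% to 68.1% of other promoters called. For H3K27me3 the differences in the same deciles ran from -16.7 to -10.3 points, and the average within deciles was -14.5 by MACS2 and -14.7 by SEACR.

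**Figure D2:**
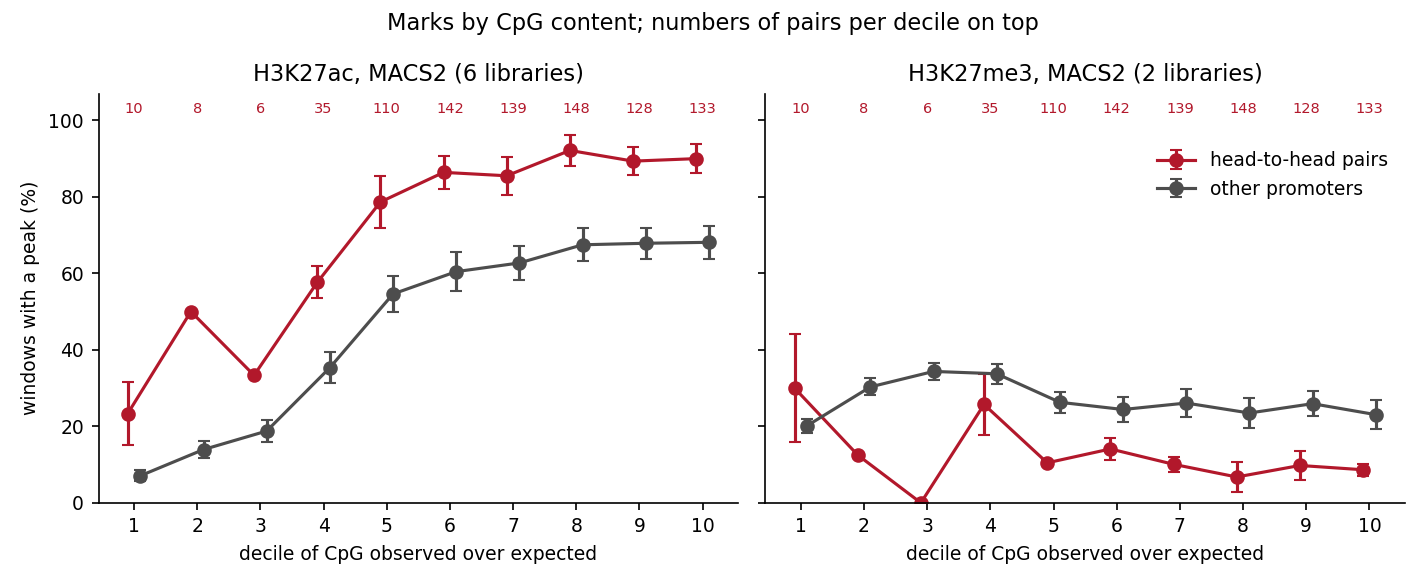
Share of windows (%) with a MACS2 peak of H3K27ac (left, mean ± SD of 6 libraries) or H3K27me3 (right, mean ± SD of 2 libraries) in deciles of the observed over expected CpG ratio, with head-to-head pairs in red and other promoters in grey. In each of the 6 upper deciles pairs lie 21.5 to 25.9 points above other promoters for H3K27ac and 10.3 to 16.7 points below them for H3K27me3, while the 4 lower deciles hold only 59 pairs and scatter.

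The 300 bp from 250 bp upstream of each start showed other features of sequence that the rule did not use. CCGGAAG, on either strand, was found at 27.8% of pair genes and 10.4% of other genes (11.9% of all), GCGCATGC at 8.94% and 3.15% (3.65% of all), and AAGATGGCG at 4.29% and 1.67% (1.89% of all). GGGCGG was found at 72.3% of pair genes and 50.5% of other genes (52.4% of all), but in the upper 5 deciles of CpG ratio the shares were 75.9% and 75.1%. CCGGAAG still differed there, with 28.9% of 1327 pair genes and 15.7% of 8526 other genes. TATAAA was rarer at pair genes, with 4.83% against 11.5% of other genes (11.0% of all), but the shares were 4.60% and 5.76% in the upper 5 deciles. The windows of both genes of a pair overlap, so these shares carry no test.

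MACS2 peaks mostly lay over both starts, which were a median of 130 bp apart, while most summits lay beside the starts. The median peak was wider than that span, so a peak that reaches either start tends to cover both. Among called pairs, both starts were under MACS2 peaks in 85.2% ± 5.42 and under the same single peak in 84.6% ± 5.58, while 9.54% ± 3.27 had only 1 start covered and 5.25% ± 2.19 neither (mean ± SD, n = 6 libraries). With the wider SEACR peaks 1 peak lay over both starts in 98.4% ± 0.838 of called pairs. The gene's own start was covered at 90.1% ± 3.67 of called pair genes and 80.4% ± 3.57 of called other genes by MACS2. The leading MACS2 peak had a median width of 1160 to 2112 bp at pairs and 1029 to 1736 bp at other promoters, depending on the library. Its summit lay between the 2 starts in only 15.2% ± 5.49 of called pairs, on the minus-strand gene's side in 45.4% ± 3.35 and on the plus-strand gene's side in 39.4% ± 2.27.

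The reach of peaks differed most upstream of the start. For genes with a MACS2 peak within 1500 bp, coverage of the 1000 bp upstream minus that of the 1000 bp downstream was 7.11 ± 1.49 percentage points at pair genes and -25.3 ± 1.94 at other genes. The difference of 32.4 ± 0.661 points held in 6 of 6 libraries (p = 0.03125, exact sign-flip permutation test, n = 6 libraries; 0.0365 adjusted). By the rule, the stretch upstream of a pair gene is for most pairs largely the stretch downstream of its partner. Upstream and downstream coverage averaged over pair genes therefore nearly balance by construction. The difference mainly restates the -25.3 points of other genes, and its p-value cannot show a trait of pairs. At 1000 bp upstream 48.8% of called pair genes and 21.8% of called other genes were covered, whereas at 1000 bp downstream the order was turned, with 38.5% of pair genes and 50.8% of other genes. Within 1500 bp of the centre called pairs had 58.8% of their bases under MACS2 peaks (42.3% to 66.3% over libraries) and called other promoters 49.5% (38.1% to 54.2%), a difference of 9.36 ± 3.37 points in 6 of 6 libraries (same test, p = 0.03125, exact; 0.0365 adjusted) and of 10.4 points without ab4729 replicate 1. By SEACR the difference was 7.58 ± 0.242 points, with 89.6% of pairs' bases and 82.0% of others' bases covered. Centred on the midpoint, a pair's window lies mostly downstream of either start. The window of another gene takes in its upstream side, where coverage was lower. The coverage differences thus share this geometry, and their p-values cannot show a trait of pairs either.

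**Figure D3:**
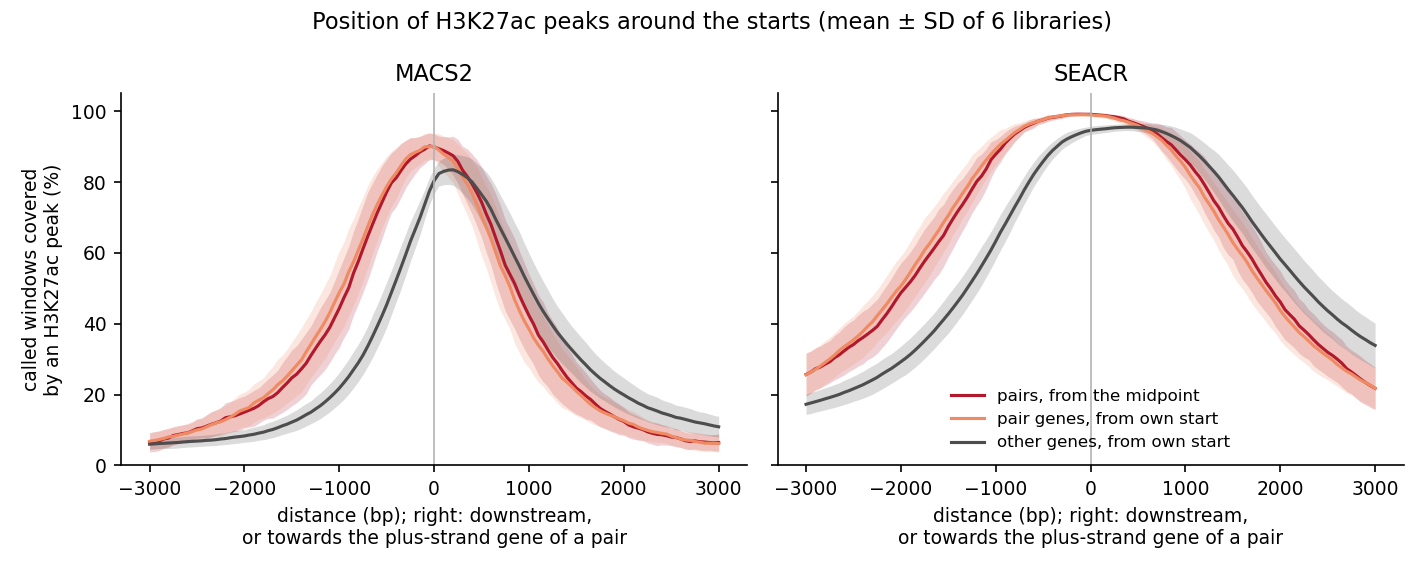
Share of called windows (%) covered by an H3K27ac peak at each distance (bp) from the midpoint of a pair (red), from the own start of a pair gene (orange) or from the start of another gene (grey), as mean ± SD of 6 libraries for MACS2 (left) and SEACR (right). The curves of pairs are nearly symmetric around 0, while the curve of other genes is shifted downstream, with its MACS2 maximum at 200 bp.

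The height of the peaks differed little. The median log2 fold enrichment of called windows was 4.40 ± 0.343 at pairs and 4.30 ± 0.294 at other promoters, and the difference of 0.10 ± 0.08 did not pass the test (5 of 6 libraries higher, ab4729 replicate 1 at 0; p = 0.0625, exact permutation test, n = 6 libraries; 0.0625 adjusted). For SEACR the median log2 total signal was 0.12 ± 0.08 higher at pairs (15.3 and 15.2, 6 of 6 libraries, p = 0.03125, exact; 0.0365 adjusted), but among the upper 50% of each list by signal the difference was -0.004. Pairs were therefore called more often, with peaks of nearly the same height, while their wider coverage shares the geometry of the windows described above.

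H3K27ac was found most often at spans of over 250 and up to 500 bp and less often at wider ones. MACS2 H3K27ac peaks were found at 84.0% ± 5.44 of the 337 pairs with spans of 1 to 100 bp, 84.4% ± 4.44 of 310 pairs over 100 and up to 250 bp, 90.3% ± 3.23 of 138 pairs up to 500 bp and 77.7% ± 2.93 of 74 pairs over 500 bp (mean ± SD, n = 6 libraries). The libraries' shares overlapped between neighbouring bins up to 500 bp, but the widest bin (74.3% to 81.1%) lay below the bin before it (84.1% to 92.8%) in every library. The widest spans also had the lowest median CpG ratio, 0.724 against 0.785 for the shortest, and the most H3K27me3, at 25.7% and 20.3% of pairs by MACS2 in the 2 libraries, against 8.01% and 6.23% for the shortest. Divergent neighbours farther apart, with no other protein-coding start between them, had less H3K27ac when each start was scored alone. MACS2 peaks were found at 61.8% ± 6.65 of 140 genes whose partner started over 1000 and up to 2000 bp away, 53.7% ± 5.01 of 394 genes up to 5000 bp and 48.98% ± 5.21 of 604 genes up to 10000 bp, against 84.3% ± 5.10 of 635 genes at 1 to 100 bp scored in the same way. Their median CpG ratios were 0.630, 0.618 and 0.615, against 0.788. At the limit of the rule itself, 12 of 16 pairs with spans over 900 bp and 7 of 9 divergent pairs just outside, up to 1100 bp, had MACS2 H3K27ac peaks in 6 of 6 libraries.

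**Figure D4:**
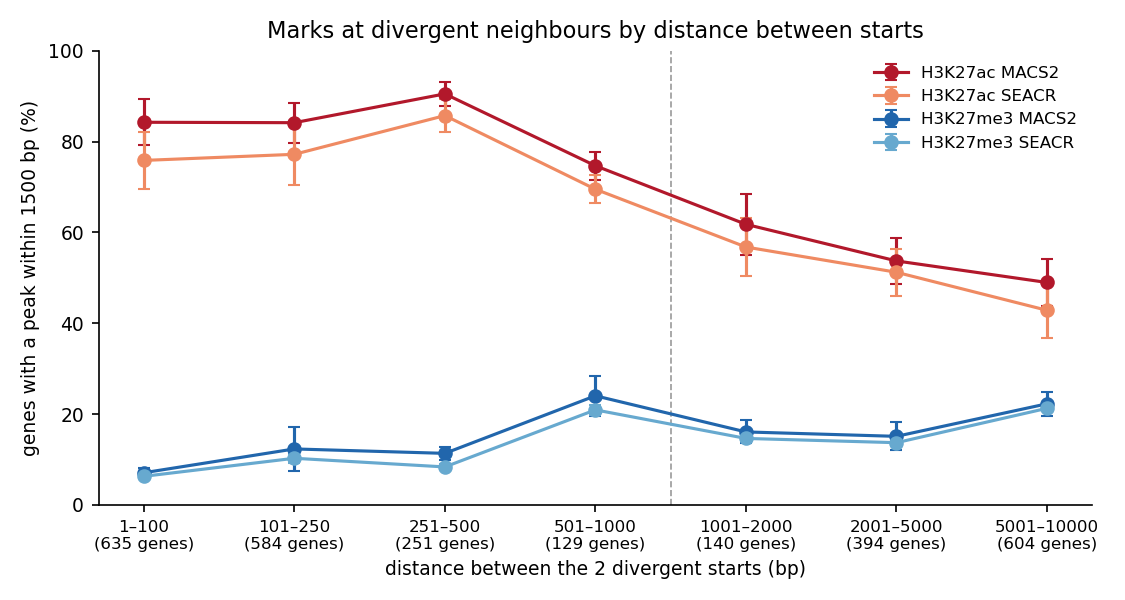
Share of genes (%) with a peak within 1500 bp of their own start, by the distance between the starts of divergent neighbours with no protein-coding start between them, as mean ± SD of 6 H3K27ac or 2 H3K27me3 libraries. H3K27ac by MACS2 is at 84.3% for spans of 1 to 100 bp, at 74.7% for those over 500 and up to 1000 bp and at 48.98% for those over 5000 and up to 10000 bp (the dashed line marks the 1000 bp limit of the rule).

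Among the 9 pairs long known as examples of divergent promoters, 8 were acetylated in 6 of 6 libraries by MACS2. The same held for 74.6% of all pairs and 38.6% of all windows. TMEM258-FEN1 (chromosome 11), a subunit of the oligosaccharyltransferase and the flap endonuclease of DNA replication, had a lowest, median and highest fold enrichment of 23.3, 65.3 and 90.7 over the 6 libraries. Its median lay well above the 21.4 over pairs, and its lowest value came from ab4729 replicate 1. PPAT-PAICS, enzymes of purine synthesis, had 21.1, 35.5 and 42.0, and PRKDC-MCM4, a DNA repair kinase and a subunit of the replicative helicase only 7 bp apart, had 15.3, 29.8 and 37.1. PDCD10-SERPINI1 had 26.2, 30.7 and 35.7, with 0 H3K27me3 peaks and a CpG ratio of 0.551. SERPINI1 encodes the neuronal protease inhibitor neuroserpin. SARS2-MRPS12, both of mitochondrial translation, had 13.8, 25.5 and 33.3. Of these, only PPAT-PAICS also held an H3K27me3 peak, in 1 of 2 libraries.

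NPAT-ATM, a coactivator of histone genes and a DNA damage kinase 406 bp apart, had 13.8, 20.8 and 26.8, and its peaks reached farther on the NPAT side in 6 of 6 libraries, with on average 1250 bp covered there and 738 bp on the ATM side. It held an H3K27me3 peak in 1 of 2 libraries by MACS2. RNF166-CTU2, whose plus-strand gene serves the thiolation of transfer RNA, was the weakest of the acetylated examples with 6.97, 11.2 and 16.7, and SEACR missed it in 1 library. Its rank by SEACR signal within a list was at percentile 38.6 as the median of the 6 libraries and at 99.99 as the highest. COL4A4-COL4A3, which encode chains of basement membrane collagen, stood alone with H3K27ac in 0 of 6 and H3K27me3 in 2 of 2 libraries by both callers. The H3K27me3 fold enrichment of its broad peaks was 5.91 and 6.85. In the equal-depth lists PDCD10-SERPINI1 was called in 14, TMEM258-FEN1 and SARS2-MRPS12 in 12, PPAT-PAICS in 11, NPAT-ATM in 9, PRKDC-MCM4 in 8, RNF166-CTU2 in 1 and COL4A4-COL4A3 in 0 of 16 H3K27ac libraries. A single such library called on average 35.5% of pairs and 15.8% of other promoters. None of these named pairs was called in 16 of 16 libraries, as 1.31% of all windows were.

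SEACR signal is the total of a whole peak, which can reach past the window of a pair. The 5 pairs with the highest SEACR signal had a median rank over libraries between the 99.4th and the 99.8th percentile, although HSPA1L-HSPA1A lay as low as percentile 87.2 in 1 library. UFD1-CDC45 (chromosome 22, 255 bp), a ubiquitin-binding protein and a replication helicase subunit, had the highest fold enrichment of these, 100.3, 306 and 390 as lowest, median and highest. It also held MACS2 H3K27me3 peaks in 2 of 2 libraries (fold enrichment 4.50 and 3.41, over 575 bp of its window on average) and a SEACR one in 1. These H3K27me3 values belong to broad peaks without a summit and cannot be set against the H3K27ac values. Fold enrichment of either mark is taken over the genome-wide background. It was not corrected for the number of copies of a locus in these cells, which was not measured here. GTPBP2-MAD2L1BP (79.7, 94.7 and 213), RHOF-SETD1B (39.3, 67.1 and 121), AGPAT1-RNF5 (29.1, 43.7 and 48.8) and HSPA1L-HSPA1A (21.1, 36.5 and 44.6) were the others, in which MAD2L1BP acts in the spindle checkpoint, SETD1B methylates histone H3 and HSPA1A is the inducible heat shock chaperone. In the shortest spans with 6 of 6 calls by both callers, the 2 starts were 1 to 5 bp apart and the medians ran from 12.2 (LSM7-SPPL2B) to 36.4 (CIAPIN1-COQ9), with NEK1-CLCN3 at 33.0, SLC7A6OS-PRMT7 at 26.9 and CHMP1A-SPATA33 at 14.3.

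Of 12 pairs of histone genes, 11 were acetylated in 6 of 6 libraries by MACS2 and 1 was under H3K27me3. The 10 pairs of an H2A with an H2B gene had spans of at least 170 bp and held 3 to 6 CCAAT boxes each (either strand), whereas only 10.0% of the 717 pairs with spans of at least 50 bp held 3 or more. Many of those spans were shorter than 170 bp, which leaves less room for a box. MACS2 called H3K27ac in 6 of 6 libraries at 74.6% of all pairs and at 33 of 48 histone promoters outside pairs. Of the 10 H2A-H2B pairs it called 9. H2BC12-H2AC12 is shown as 1 of these 9, H2AC1-H2BC1 as the only exception, and HSPA1L-HSPA1A because it shares the CCAAT and TATA boxes.
H2BC12-H2AC12, chr6:27114635-27114884: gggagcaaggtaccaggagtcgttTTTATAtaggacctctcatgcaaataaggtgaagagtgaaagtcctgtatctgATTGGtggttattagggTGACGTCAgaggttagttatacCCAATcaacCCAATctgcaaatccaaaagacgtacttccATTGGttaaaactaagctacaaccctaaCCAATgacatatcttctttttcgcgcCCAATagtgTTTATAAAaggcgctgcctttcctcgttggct
H2AC1-H2BC1, chr6:25726791-25727004: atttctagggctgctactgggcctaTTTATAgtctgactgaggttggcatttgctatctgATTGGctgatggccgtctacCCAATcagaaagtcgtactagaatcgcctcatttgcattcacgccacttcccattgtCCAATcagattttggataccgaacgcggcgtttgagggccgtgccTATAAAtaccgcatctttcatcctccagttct
HSPA1L-HSPA1A, chr6:31783061-31783319: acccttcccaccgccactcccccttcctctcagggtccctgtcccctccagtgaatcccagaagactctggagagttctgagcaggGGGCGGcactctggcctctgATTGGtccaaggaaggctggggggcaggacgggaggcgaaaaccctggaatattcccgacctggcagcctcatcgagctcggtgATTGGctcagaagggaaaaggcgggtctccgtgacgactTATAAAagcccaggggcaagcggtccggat

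H2BC12-H2AC12 had fold enrichments of 20.6, 26.8 and 38.9 as lowest, median and highest and a median rank at the 99.0th percentile of SEACR signal. H2AC1-H2BC1, histone genes known for expression in testis, had H3K27ac in 0 of 6 libraries and H3K27me3 in 2 of 2 by both callers, with 2628 bp of its window under MACS2 H3K27me3 peaks on average. Its 3 CCAAT boxes are at the low end of the 10 pairs, and 7 of the 10 hold a TATA box, as it does. H2AC14-H2BC14 was the faintest acetylated pair, with 10.2, 10.6 and 12.8, and SEACR called it in 4 of 6 libraries.

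Other groups of genes were described by their counts, beside 74.6% of all pairs with MACS2 H3K27ac in 6 of 6 libraries and a median fold enrichment of 21.4. All 11 pairs with a gene of the cytosolic ribosome, such as RPL9-LIAS and RPS16-SUPT5H, were called in 6 of 6 libraries by both callers (median fold enrichment 31.6), as were 62 of 70 other ribosomal promoters by MACS2. Of 18 pairs with a mitochondrial ribosomal gene 16 were called by MACS2, among them TCP1-MRPL18, as were 50 of 61 other promoters of that list. Of the 3 pairs with an aminoacyl-tRNA synthetase gene all 3 were called, as were 30 of 34 other promoters. Among 30 pairs with a DNA repair or replication gene, 26 were called by MACS2 and 23 by SEACR, against 51 and 40 of 71 other promoters of the list. ORC1-PRPF38A, an origin recognition subunit beside a splicing factor, had a median of 31.8, PMS2-AIMP2 31.0, BRCA1-NBR1 20.1 and PCNA-CDS2 21.5. PRSS54-GINS3 and RAD51D-FNDC8 had no MACS2 H3K27ac peak.

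Proteasome genes were called at 5 of 5 pairs by MACS2 and 4 of 5 by SEACR (27 and 23 of 42 other promoters), and genes of oxidative phosphorylation at 21 of 27 by either caller, close to the 69 of 88 other promoters of that list. Zinc finger genes were lower, with 18 of 29 pairs by MACS2, yet the 216 of 520 other zinc finger promoters were lower still. Genes named TMEM, which encode transmembrane proteins, were called at 24 of 28 pairs and 77 of 204 other promoters. Developmental transcription factor and signalling genes formed only 8 pairs. FOXM1-TULP3, FOXL2-FOXL2NB, SYMPK-FOXA3 and FUT1-FGF21 were called in 6 of 6 libraries, LMF1-SOX8 carried H3K27me3 in 2 of 2, SOX18-TCEA2 had H3K27ac in 5 by MACS2, and SOX30-C5orf52 and WNT3-WNT9B had no peak of either mark. Of the 213 other promoters of that list 28 were called for H3K27ac in 6 of 6 and 130 for H3K27me3 in 2 of 2 libraries by MACS2. Protocadherin genes formed no pair.

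A small class of pairs was under H3K27me3 alone. By both callers in 2 of 2 libraries, with no H3K27ac peak in any list, 36 pairs (4.19%) and 3445 other promoters (19.6%) were of this kind, against 18.9% of all windows. The 5 with the most bases under MACS2 H3K27me3 peaks were covered over their whole windows. SEZ6L2-ASPHD1 (3826 bp, fold enrichment 4.92 and 5.60) holds a gene of neurons, TBC1D16-CCDC40 (3761 bp, 7.03 and 8.50) a gene of cilia, TPRX1-CRX (3729 bp, 4.58 and 5.12) the photoreceptor transcription factor CRX, and PRAC1-PRAC2 (3668 bp, 6.89 and 8.14) a pair named for expression in prostate. HPCAL4-PPIE (3698 bp, 6.31 and 7.13) was the other. All 5 had wide spans, of 667 to 825 bp, and a wider span makes a longer window. TPRX1-CRX had a CpG ratio of 0.0989, in the lowest decile.

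Both marks were called together at few pairs. H3K27ac in 5 or 6 and H3K27me3 in 2 of 2 libraries by both callers was found at 13 pairs (1.51%) and 131 other promoters (0.745%), against 0.781% of all windows. In 24 pairs by MACS2 alone the marks could be compared by side, using the 1500 bp downstream of each start. In 9 of them the side with more H3K27ac was not the side with more H3K27me3. Most of the 24 did not part in this way, and the NDUFA11 and RFXANK loci are each counted more than once. ZNF558-MBD3L1 is counted among the 9 although its H3K27ac was all but equal on both sides and its libraries were split 3 to 3. PURG-WRN (chromosome 8, 73 bp) was the clearest. On the side of WRN, which encodes a DNA helicase, H3K27ac covered 686 to 1500 bp over the 6 libraries (mean 1364 bp) and H3K27me3 20 bp. On the side of PURG, a purine-rich element binding protein, H3K27ac covered 0 to 114 bp (mean 62.2 bp) and H3K27me3 457.5 bp. PLAG1-CHCHD7 and DOCK4-ZNF277 had no H3K27ac on the side of PLAG1 or DOCK4 in any library, where H3K27me3 covered 848.5 and 1500 bp, and on average 518 and 422 bp of H3K27ac on the side of CHCHD7 and ZNF277. H3K27me3 was not absent from those sides, where it covered 343.5 and 324.5 bp, both pairs lacked H3K27ac in 1 library by MACS2, and SEACR called DOCK4-ZNF277 for H3K27ac in only 1 of 6.

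In ZNF558-MBD3L1 H3K27me3 covered 13 bp on the zinc finger side and 664.5 bp on the side of MBD3L1, while H3K27ac covered 675 and 674 bp of the 2 sides. ARPC5-RGL1 had both marks mainly on the ARPC5 side, a subunit of the actin-nucleating Arp2/3 complex, with 593 bp of H3K27ac there and 0 bp on the RGL1 side. NDUFA11-VMAC and NDUFA11-ENSG00000267314 share 1 locus, as does their 819 bp of H3K27me3, and KCTD9-CDCA2 had 766 bp. Whether both marks lay in the same cells or on the same allele cannot be told apart from such lists.

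One-sided acetylation was common in milder form. In 87.1% ± 4.31 of pairs called by MACS2, peaks covered bases downstream of both starts, and in 12.8% ± 4.15 of only 1 (mean ± SD, n = 6 libraries). Of the 641 pairs called in 6 of 6 libraries, 338 (52.7%) had more covered bases on the same side in all 6 libraries, 184 on the minus-strand and 154 on the plus-strand side. The median difference between sides was 382 bp, and 36 pairs differed by over 1000 bp. The most one-sided were CCDC148-PKP4 (69.8 bp on the side of CCDC148 and 1408 bp on that of PKP4, a junction protein), PURG-WRN, FUZ-MED25 (0 and 1292 bp, with MED25 a subunit of Mediator), ARFRP1-ENSG00000273154 (1366 and 98.3 bp) and CREB3L2-AKR1D1 (1408 bp on the side of the transcription factor CREB3L2 and 156 bp on that of the steroid reductase AKR1D1). Each was one-sided in 6 of 6 libraries, and the minus-strand side of FUZ-MED25 had no covered base in any.

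**Figure D5:**
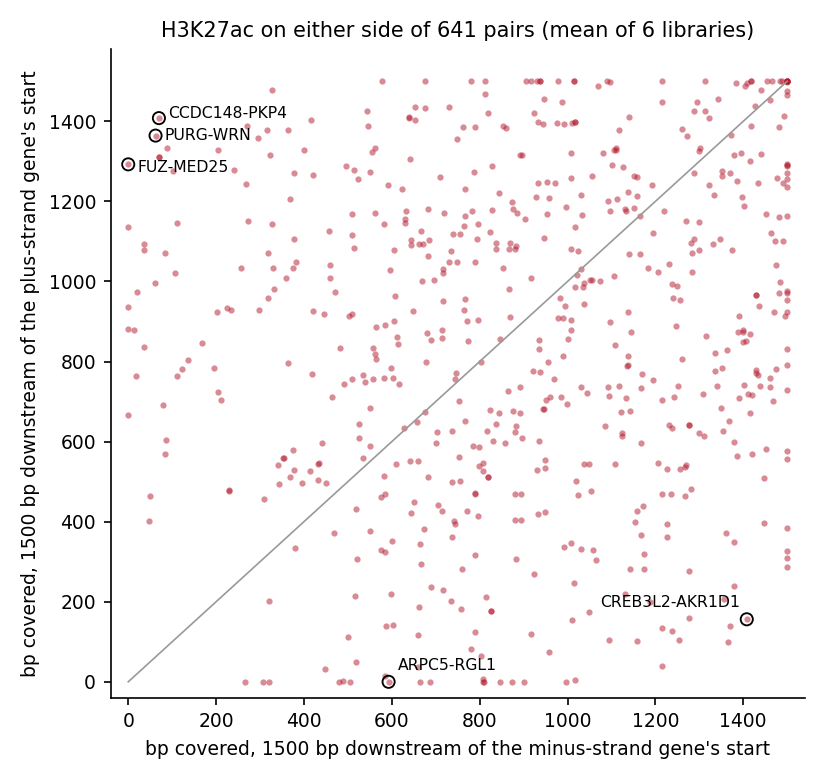
H3K27ac bases (bp, mean of 6 libraries) under MACS2 peaks in the 1500 bp downstream of the minus-strand gene's start (x axis) and of the plus-strand gene's start (y axis), for the 641 pairs called in 6 of 6 libraries. Points fill both sides of the diagonal of equal coverage, and circled pairs such as PURG-WRN (62.2 and 1364 bp) lie along the axes.

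No peak of either mark in any benchmark list was found at 49 pairs (5.70%) and 4139 other promoters (23.6%), against 22.7% of all windows. In alphabetical order the first of them were AGBL4-ELAVL4, ARRDC5-UHRF1, ATP5MJ-TDRD9, C17orf114-PLD2 and C2orf81-WDR54. ELAVL4 is a gene of neurons and TDRD9 one of the germ line, but ATP5MJ encodes a subunit of the mitochondrial ATP synthase and UHRF1 a factor that maintains DNA methylation. Only the outermost annotated start was scored, and peaks at starts inside these genes were not counted.

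In the 16 equal-depth H3K27ac libraries, which the authors had brought to one depth and called with SEACR alone, the shares were lower and the order was the same. Peaks lay at 35.5% ± 10.5 of pairs and 15.8% ± 4.33 of other promoters (mean ± SD, n = 16 libraries). The difference of 19.7 ± 6.50 percentage points was positive in 16 of 16 libraries (p = 3.05e-05 in an exact sign-flip permutation test, the smallest it allows) and was 13.4 within CpG deciles. Over single libraries 14.7% to 56.6% of pairs and 8.26% to 23.3% of other promoters were called, a ratio of 1.78 to 2.67. The mean share of pairs was 43.9% ± 9.85 with ab4729, 35.9% ± 3.56 with ab177178, 32.3% ± 13.6 with Diagenode and 29.9% ± 10.3 with Active Motif (n = 4 libraries each), whose ranges overlap. In 16 of 16 libraries 24 pairs (2.79%) and 218 other promoters (1.24%) were called, against 1.31% of all windows, and in none 185 pairs (21.5%) and 60.3% of other promoters. In the 4 equal-depth H3K27me3 libraries pairs were called less often than other promoters each time, by -10.5 to -3.20 percentage points.

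The label of the cells was checked on promoters of marker genes. Of 7 autosomal erythroid genes, among them TAL1, KLF1, HBG1, NFE2, LMO2 and EPOR, 6 had H3K27ac in 6 of 6 libraries by both callers. None of 6 genes of other cell types, among them CD3E, PAX5, CD4, ALB and SFTPC, had an H3K27ac peak, and 2 had H3K27me3 in both libraries. The benchmark lists held 20844 to 34098 autosomal MACS2 peaks and 10674 to 15223 SEACR peaks for H3K27ac, and 63645 to 74886 and 81112 to 82907 for H3K27me3. At most 0.190% of the peaks of a list had the same coordinates in another.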

How the data were processed

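CUT&Tag libraries of K562 were sequenced and processed by the authors, who used Trim Galore 0.6.6 for trimming, Bowtie2 2.2.9 for alignment (hg19) and Picard 2.6.0 for duplicates, and who called peaks in each library with MACS2 (q 1e-05, broad for H3K27me3) and SEACR (threshold 0.01 for H3K27ac, 0.1 for H3K27me3). The deposited MACS2 lists give each peak's fold enrichment (a ratio over the genome-wide background), its q-value as −log10 and, for narrow peaks, the summit position. Fold enrichment of the broad H3K27me3 peaks is not a summit height and is not comparable with that of H3K27ac. The deposited SEACR lists give the total signal of each peak. The 20 equal-depth lists were called by the authors with SEACR after downsampling. The lists do not give depth or fragment counts, so no counting intervals are given, and a deeper library can hold more peaks. Blacklisted regions were not removed, and libraries of the first and TSA experiments were not used.

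Gene starts came from GENCODE (lifted to GRCh37), and no peak ended past the end of a chromosome of that assembly. A window counted as called when at least 1 bp lay under a peak. Shares, coverage and medians were computed per library in Python 3.11.15 with numpy 2.4.6, and figures were drawn with matplotlib 3.10.9. Differences over libraries were tested by exact two-sided sign-flip permutation, and the contrast of marks over the ways to pick 2 of 8 libraries. Scripts were tested on simulated data and against bedtools. The members, gene lists and tests were chosen with earlier results of these data known. Patterns of 2 gene lists (cytosolic ribosome, proteasome) were tightened after counts were seen, to drop genes that do not encode subunits.

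Pairs were named by rule: known examples; the 5 with the highest median rank of SEACR signal; up to 5 each under H3K27me3 alone or under both marks (by bases covered), most one-sided, called with 1 antibody alone, without any peak (by alphabet) and with the shortest spans called in 6 of 6 libraries. Other names in the paragraphs on histone and other gene groups, and PLAG1-CHCHD7 and DOCK4-ZNF277, were chosen after their values were seen. Alternatives were stricter peaks, other windows and overlaps, other comparison sets, CpG deciles and leaving out each replicate. Values of some named items are not reported here.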

Additional observations from a re-analysis of the deposited data

Results flagged for a closer look

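In 27 groups of 4 to 6 libraries the highest or lowest library was set against the rest, and chance marks about 1 in 20 such groups. The library ab4729 replicate 1 stood apart with MACS2 H3K27ac peaks at 76.1% of pairs, where the other 5 libraries had 83.5% to 87.5%. It also stood apart in the coverage of called other promoters, with 38.1% of bases under MACS2 peaks.

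Among the 4 equal-depth H3K27me3 libraries, which differ in PCR cycles and extraction and are not replicates, that with 11 cycles and column extraction stood apart. Its SEACR peaks lay at 16.9% of pairs and 20.1% of other promoters, a difference of -3.20 percentage points, whereas the other 3 ranged from 4.31% to 5.47% of pairs and from -10.5 to -9.75 points.

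The excess of pairs over other promoters differed between the marks by 55.8 percentage points with MACS2 and 55.4 with SEACR, with H3K27ac positive in 6 of 6 and H3K27me3 negative in 2 of 2 libraries (p = 0.0357 for each, exact permutation test). Mark, antibody and peak settings changed together and cannot be told apart.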

How the results depend on the processing

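The H3K27ac share differences kept their direction and test result under all 10 alternatives, from 23.4 (CpG deciles) to 41.9 points by MACS2 and from 24.6 to 40.5 by SEACR. Those of H3K27me3 stayed negative but moved by more than the small SD of 2 libraries. By MACS2 they were -3.89 with peaks at q 1e-10, -15.7 with at least 500 bp under peaks, -16.2 with windows of 1500 bp and -13.5 with 250 bp to either side of the centre, -16.0 per gene, -16.5 against others with no opposite-strand start within 1000 bp upstream, -14.5 within CpG deciles and -16.2 with overlapping pairs added. Added after seeing the data, counting pairs that share a gene once gave -15.7 and leaving genes of overlapping pairs out of the others -16.9. By SEACR they were -14.1 in the upper 50% of peaks, -16.3 with 500 bp, -14.7 with 250 bp to either side, -17.6 against others with no opposite-strand start, -14.7 within CpG deciles and -17.8 with the others so reduced. Log2 fold enrichment within CpG deciles passed the test at 0.088 (p = 0.03125, exact permutation), and log2 SEACR signal in the upper 50% of peaks turned to -0.00408; the cause was not tested.

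With the replicate number as a block the contrasts of marks stayed 55.8 (MACS2) and 55.4 (SEACR), but the 16 ways this pairing leaves allow no p below 0.0625, and the numbers name separate libraries of different antibodies. Leaving out 1 library allows no p below 0.0625 over 5 libraries. The values then ranged from 39.6 to 40.2 (MACS2 share), 38.1 to 39.0 (SEACR share), -16.1 to -16.0 and -17.3 to -16.6 (H3K27me3), 8.64 to 10.4 and 7.49 to 7.62 (coverage), 0.08 to 0.12 (fold enrichment), 0.10 to 0.13 (signal), 32.2 to 32.6 (upstream minus downstream) and 55.6 to 56.3 and 55.0 to 55.9 (contrasts). Peak lists without depth, and starts taken from annotation alone, limit what these shares can show.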

Other observations

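Pairs with a motif match in the 300 bp around either start were called for H3K27ac by MACS2 about as often as or more often than pairs without, and SEACR narrowed or turned some of these gaps. The shares were 92.5% ± 6.01 of the 49 pairs with AAGATGGCG and 84.1% ± 4.35 of the rest, 91.2% ± 3.98 of the 89 pairs with GCGCATGC and 83.9% ± 4.49 of the rest, and 89.5% ± 6.06 of the 269 pairs with CCGGAAG and 82.4% ± 3.70 of the rest (mean ± SD, n = 6 libraries). For the 55 pairs with TATAAA they were 85.2% ± 3.53 and 84.6% ± 4.52. By SEACR the shares were 86.1% and 77.1% for AAGATGGCG, 85.4% and 76.7% for GCGCATGC, 78.9% and 77.0% for CCGGAAG and 74.8% and 77.8% for TATAAA, with the motif and without. These values were not tested.

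Of the 116 pairs without a SEACR H3K27ac peak in the 6 benchmark libraries, 4 had one in at least 1 of the 16 equal-depth libraries.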
